A study of Mus musculus with 8 samples.

Results

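The integrins, laminins and matrix glycoproteins described here are 42 genes named by symbol, of which 41 were measured among 19938 genes on the array. Spp1, the gene of osteopontin, was not analysed here. The 41 genes fell into 19 integrin subunits and 22 genes of laminin chains and other matrix proteins, and each was read by 1 probe set. They were chosen by family, with earlier results of these data known, and each was compared between Bcl11a mutant and control cortex.

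Total RNA of layers II to IV of the neocortex, cut out with a laser from pups at postnatal day 2, was hybridised to 1 mouse gene array per pup. The 4 control pups were Bcl11a flox/+;Emx1 IRESCre/+ and the 4 mutant pups Bcl11a flox/flox;Emx1 IRESCre/+, so that all 8 pups carried Cre and the controls had already lost 1 allele wherever Cre acted. Cre expressed from the Emx1 locus acts in the lineage of cortical excitatory neurons and much of the cortical glia, and leaves the lineages of most cortical interneurons, endothelial cells and microglia unrecombined. Values are log2 intensities, and the same probe set was compared between pups.

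Integrins are receptors made of an alpha and a beta subunit that bind matrix proteins outside the cell and, through talin, kindlin and integrin-linked kinase, the actin cytoskeleton inside. Laminins are trimers of an alpha, a beta and a gamma chain that form the scaffold of basement membranes, with nidogens and agrin as linkers. In the developing cortex such membranes lie under the pia, where the endfeet of radial glia attach, and around blood vessels. Fibronectin, vitronectin and nephronectin carry an RGD sequence that some integrins recognise, whereas tenascins and thrombospondins are matrix proteins that modulate adhesion.

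Bcl11a served as the check of the labels. It read 10.59, 10.52, 10.34 and 10.34 in controls 1 to 4 and 8.56, 8.85, 8.37 and 8.75 in mutants 1 to 4. The groups did not overlap, and the log2 difference, mutant minus control, was -1.82 (SE 0.10, adjusted p = 4.9e-07). Array medians lay between 4.83 and 4.91. In the tissue, 0 of 12 excitatory neuron and 0 of 9 upper-layer neuron markers had group means at or below 4.31, an empirical floor read from 3 Y-linked genes on those 3 arrays where Xist was high. The same count was 0 of 11 for deep-layer neuron markers, among which Ntsr1 had a control mean of 8.74. It was also 0 of 14 for interneuron, 0 of 12 for astrocyte and radial glia and 0 of 12 for pericyte and smooth muscle markers. Of 11 microglia and macrophage markers, 7 had both group means at or below that floor, among them Aif1, P2ry12 and Tmem119. So did 4 of 7 choroid plexus and ependyma markers, Ttr among them. In mutant 4, however, Ttr read 5.51, above the floor, against 3.86, 3.53 and 3.47 in mutants 1 to 3. Xist was high in 2 controls and 1 mutant. Control 1 had the lowest array weight, 0.556, and stood apart on principal component 2, and results that change without it are given with that value. The labels do not say whether pups shared litters, and the p-values take these 8 pups as independent. Those from limma set a difference against the spread within the groups, with variances moderated over all genes.

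Of the 41 genes, 4 rose in the mutant, 0 fell and 37 did not pass an adjusted p of 0.05 over all genes. The risers were Npnt, the gene of nephronectin, Itga9 and Itga3, which encode integrin alpha9 and alpha3, and Lama2, the gene of the laminin alpha2 chain. The 4 calls are 9.76% of the members, against 4.15% of all genes called in either direction, 2.36% higher and 1.79% lower. These bases differ, since 30.7% of all genes had both group means at or below the floor, against 3 of the 41 members. Without the dimmest 30% of genes, 5 of 39 members were called higher and 0 lower. Of all 13956 genes left, 506 were then higher and 382 lower. At an unadjusted p under 0.05 limma called 6 members higher and 7 lower, against 8.54% and 5.45% of all genes. In either direction that was 31.7% of the members, against 14% of all genes. Below 0 lay the differences of 26 of the 41 genes, against 8480 of all 19938. The members' median log2 difference was -0.03, against 0.02 over all genes. The plot of log2 differences by role shows this spread, with 4 rises, 2 of them above 1.5, and the remaining genes between -0.31 and 0.62.

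**Figure D1:**
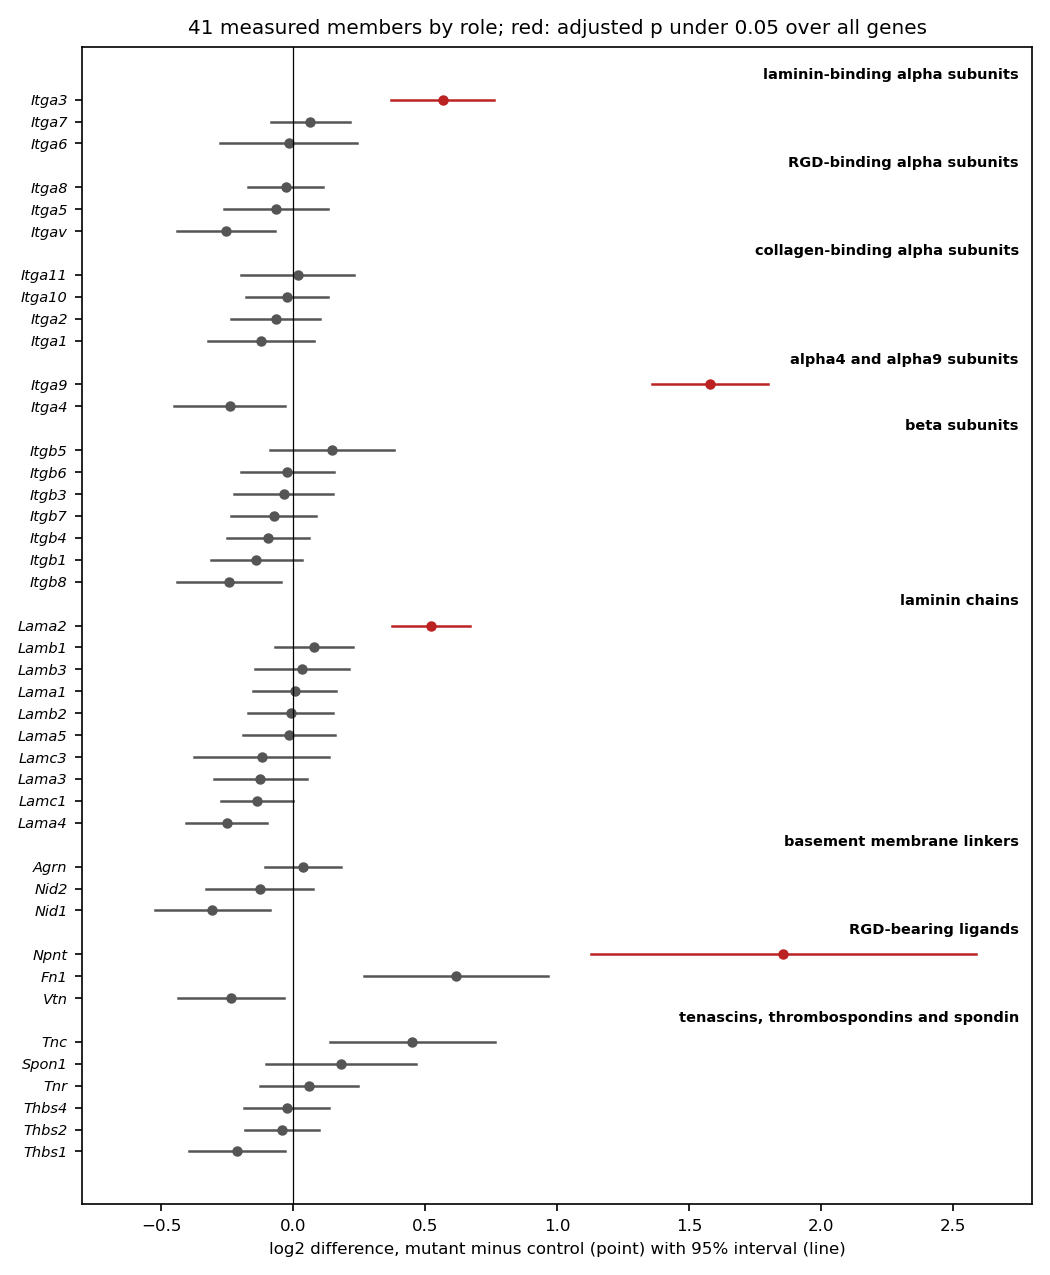
Log2 difference between mutant and control (horizontal axis) with its 95% interval for each of the 41 measured genes (vertical axis), grouped by role. Red marks the 4 genes with an adjusted p under 0.05 over all genes, Itga9, Npnt, Lama2 and Itga3, and no gene on the left of 0 is red.

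Nephronectin is a matrix protein with RGD that is best known as the ligand of integrin alpha8 beta1. Npnt (probe set 10502240) read 5.54, 6.91, 7.04 and 7.37 in controls 1 to 4 and 7.79, 9.05, 8.66 and 8.78 in mutants 1 to 4. All 4 mutants lay above all 4 controls, with control 1 far below the other controls and mutant 1 below the other mutants. The mean rose from 6.71 ± 0.81 to 8.57 ± 0.55 (SD, n = 4), which is 3.62-fold with a 95% interval of 2.18 to 6.01 (adjusted p = 0.0056). Its SD was the largest of the 41 genes in both groups. Without control 1 the log2 difference was 1.46 (adjusted p = 0.00163), against 1.86 with it, and the call was lost when all probe sets were tested (adjusted p = 0.0614), with an intensity trend and robust variances (0.115) and without variance moderation (0.184).

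Integrin alpha9 pairs with beta1 and binds tenascin C, osteopontin and VCAM1 among others. Itga9 (probe set 10590031) read 4.85, 4.62, 4.50 and 4.64 in the controls and 6.02, 6.51, 6.18 and 6.22 in the mutants. The control values were low, with the floor at 4.31, and the lowest mutant stood 1.17 above the highest control. The rise from 4.65 ± 0.15 to 6.23 ± 0.20 (SD, n = 4) was 2.99-fold with a 95% interval of 2.56 to 3.48 (log2 difference 1.58, SE 0.10, adjusted p = 1.31e-06). It passed under all 19 alternatives that gave a value, with adjusted p of at most 0.0108. Its close relative Itga4, whose product also binds VCAM1 and fibronectin, read 6.24 ± 0.18 in controls and 6.003 ± 0.148 in mutants (SD, n = 4, log2 difference -0.24, adjusted p = 0.265).

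The laminin alpha2 chain belongs to laminins of muscle, nerve and brain basement membranes. Lama2 (probe set 10368409) read 5.50, 5.35, 5.34 and 5.56 in the controls and 5.95, 5.93, 5.94 and 6.01 in the mutants. The mutants lay within 0.08 of each other and above every control. The rise from 5.43 ± 0.11 to 5.96 ± 0.04 (SD, n = 4) was 1.44-fold, with a 95% interval of 1.30 to 1.59 and an adjusted p of 4.96e-04. Lama2 was past the threshold under all 20 alternatives, with adjusted p from 3.47e-04 to 0.0237.

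Integrin alpha3 pairs with beta1 and is a laminin receptor of epithelia, neurons and radial glia. Itga3 (probe set 10390117) read 5.60, 5.77, 6.04 and 5.97 in the controls and 6.42, 6.49, 6.37 and 6.37 in the mutants. The groups did not overlap, and control 1 was the lowest. The rise from 5.85 ± 0.20 to 6.41 ± 0.05 (SD, n = 4) was 1.48-fold, with a 95% interval of 1.29 to 1.70 and an adjusted p of 0.00214. Without variance moderation the call was lost (adjusted p = 0.0749). For each of the 4 genes that rose the exact two-sided permutation p over the 70 ways to choose 4 of 8 arrays was 0.0286, the smallest that this design can give.

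**Figure D2:**
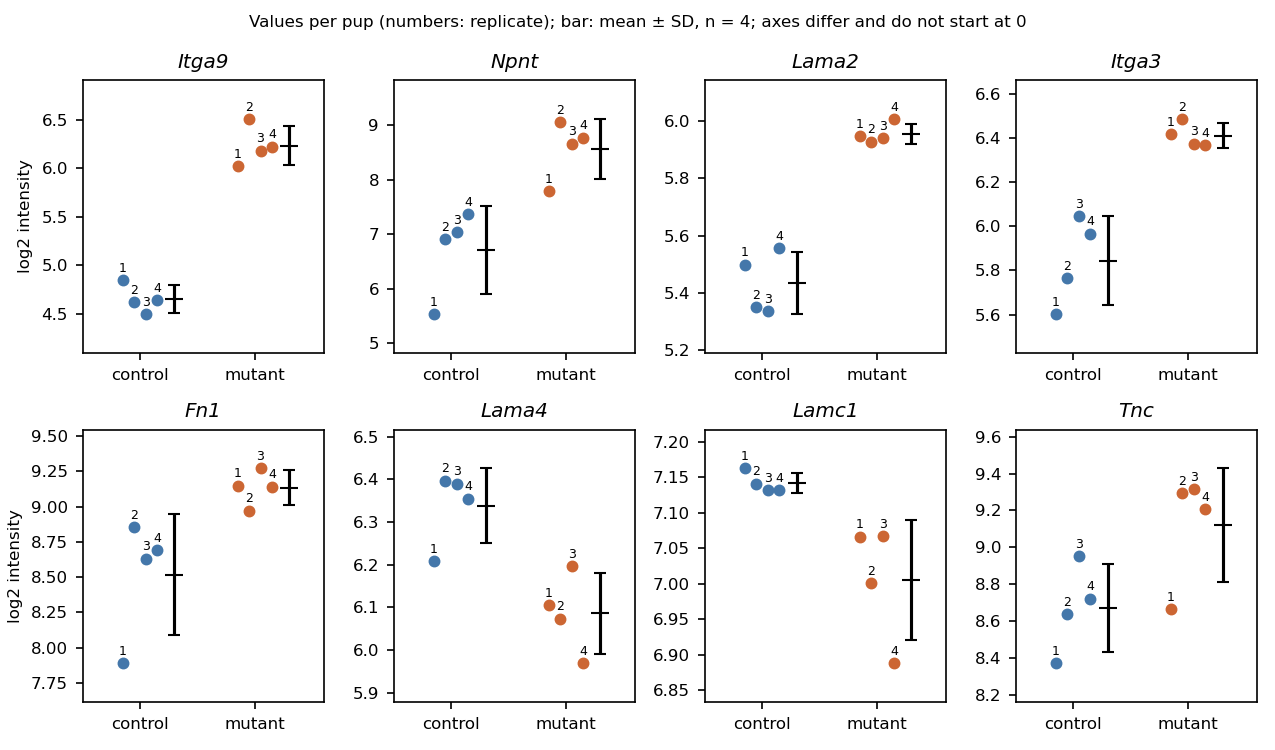
Log2 intensity (vertical axes, which differ and do not start at 0) in each control (blue) and mutant (orange) pup for 8 genes, with the replicate number at each point and the mean ± SD (n = 4) as a bar. Npnt, Itga9, Lama2, Itga3 and Fn1 are higher in all mutants than in any control, Lama4 and Lamc1 lower, and Tnc overlaps through mutant 1.

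The promoters of 3 of the 4 genes that rose are shown so that their base composition can be compared, as the 250 bases before the start site, 5′ to 3′, from RefSeq on GRCm38.p6, with CG dinucleotides in capitals. The Npnt window is chr3:132950292-132950541 on the minus strand, at the annotated 5′ end of the gene. The Itga3 window is chr11:95076715-95076964, minus strand, with its start 130 bases inside the annotated gene, and the Lama2 window is chr10:27616943-27617192, minus strand, with its start 249 bases inside.
Npnt: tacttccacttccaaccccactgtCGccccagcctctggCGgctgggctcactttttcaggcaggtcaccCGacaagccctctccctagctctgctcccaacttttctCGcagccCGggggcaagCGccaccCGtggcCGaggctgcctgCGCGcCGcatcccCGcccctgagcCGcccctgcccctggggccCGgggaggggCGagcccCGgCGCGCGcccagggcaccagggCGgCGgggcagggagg
Itga3: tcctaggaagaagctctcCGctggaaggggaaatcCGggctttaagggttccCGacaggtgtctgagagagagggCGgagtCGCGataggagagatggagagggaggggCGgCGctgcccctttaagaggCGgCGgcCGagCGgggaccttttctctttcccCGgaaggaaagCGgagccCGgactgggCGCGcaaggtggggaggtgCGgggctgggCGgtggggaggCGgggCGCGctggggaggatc
Lama2: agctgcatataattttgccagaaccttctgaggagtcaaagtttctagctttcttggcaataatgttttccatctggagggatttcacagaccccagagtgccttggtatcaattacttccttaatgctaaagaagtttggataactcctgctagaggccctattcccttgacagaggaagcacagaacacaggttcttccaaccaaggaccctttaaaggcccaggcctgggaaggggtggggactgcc
The Npnt window held 21 CG dinucleotides, the Itga3 window 22 and the Lama2 window 0, against a median of 6 over 32851 promoters. The table holds a second promoter for Itga3, with its start 7646 bases inside the gene and 5 CG dinucleotides, below that median, and one for Npnt, 477 bases inside, with 23. For Itga9 the table gave a start 104983 bases inside the gene and no sequence is shown. The letters TGACCA, a motif of BCL11A, were searched on both strands in windows of 300 bases, from 250 before to 50 after the start. They were found in 0 of 36 promoters of 29 of the 42 listed genes and in 13.6% of all promoters. TTCNNNGAA, the core shared by motifs of BCL6 and STAT factors, was found in 3 of the 36 (8.33%), those of Itga10, Lamb2 and Vtn, against 8.3% of all promoters. Their letters leave no way for these 2 motifs to share a base, and a match describes the sequence alone.

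Among the RGD-bearing ligands, Fn1, the gene of fibronectin, came closest to the threshold. It read 7.89, 8.85, 8.63 and 8.69 in the controls and 9.15, 8.97, 9.27 and 9.14 in the mutants. The mutants lay above the controls, of which control 1 was lowest by far. The means were 8.52 ± 0.43 and 9.13 ± 0.12 (SD, n = 4), with a log2 difference of 0.62 (SE 0.16, adjusted p = 0.0524). Fn1 did not pass under 13 of 20 alternatives, with adjusted p up to 0.334, or up to 0.137 with 1 pup left out. Settings under which it passed included those without control 1 (0.41, adjusted p = 0.0139), without control 2 (0.73, adjusted p = 0.0268), after quantile normalization (adjusted p = 0.0417), with array weights (0.0493), and without the dimmest 30% (0.0428) or 50% of genes (0.0393). Vtn, the gene of vitronectin, which in brain is made largely by pericytes, had a log2 difference of -0.24 (95% interval -0.44 to -0.03, adjusted p = 0.252).

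The receptor best known for nephronectin was at background. Itga8 read between 4.06 and 4.21 in the controls and between 4.01 and 4.18 in the mutants, all under the floor of 4.31, so no fold is given. The other alpha subunits that recognise RGD did not pass. Itgav, whose product pairs with several beta subunits and binds vitronectin and latent TGF-beta, read 7.21 ± 0.11 and 6.96 ± 0.16 (SD, n = 4), with a log2 difference of -0.26 (95% interval -0.44 to -0.07, adjusted p = 0.150). Itga5, the fibronectin receptor subunit, had a log2 difference of -0.07 (adjusted p = 0.847). The remaining laminin-binding subunits were Itga6 at -0.02 and Itga7 at 0.06, with 95% intervals of -0.28 to 0.24 and -0.09 to 0.21. Whether their differences differ from that of Itga3 was not tested.

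Of the collagen-binding alpha subunits Itga1, Itga2, Itga10 and Itga11, 0 of 4 passed the limma test, and 0 of 4 had an unadjusted p under 0.05. Their log2 differences lay between -0.12 and 0.02. Itga1, which is expressed by vessels and their mural cells, had the largest of these, -0.12 (95% interval -0.32 to 0.08).

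None of the 7 beta subunits passed, and 1, Itgb8, had an unadjusted p under 0.05 in limma. Itgb1, the partner of both alpha subunits that rose, read 8.05, 8.12, 8.17 and 8.01 in the controls and 8.13, 7.95, 7.96 and 7.76 in the mutants. The groups overlapped, and the log2 difference was -0.14 with a 95% interval of -0.31 to 0.03 (adjusted p = 0.496). Itgb8, which with alphaV activates latent TGF-beta at glia and vessels, read 7.77, 8.03, 8.13 and 8.25 in the controls and 7.83, 7.80, 7.85 and 7.72 in the mutants. Control 1 alone among the controls lay in the mutant range, and the log2 difference was -0.24 (SE 0.09, adjusted p = 0.208), or -0.34 without control 1 (adjusted p = 0.0191). Itgb5, a vitronectin receptor subunit, was the sole beta subunit above 0, with a log2 difference of 0.15 (95% interval -0.09 to 0.38), while Itgb6, of epithelia, stayed under the floor in both groups.

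Of the 10 laminin chains, Lama2 rose and 9 did not pass. Lama4, the alpha chain typical of endothelial basement membranes, read 6.21, 6.40, 6.39 and 6.36 in the controls and 6.10, 6.07, 6.20 and 5.97 in the mutants. Every mutant lay below every control, by a margin of 0.01 between mutant 3 and control 1, and the log2 difference was -0.25 (SE 0.07, adjusted p = 0.0732). It passed without control 1 (-0.29, adjusted p = 0.0338), after quantile normalization (0.0427), with array weights (0.0346) and without the dimmest 50% of genes (0.0452). Under the remaining 16 of 20 alternatives Lama4 did not pass, with adjusted p up to 0.204. Lamc1, the gamma chain of most laminins, read 7.16, 7.14, 7.13 and 7.13 in the controls and 7.07, 7.001, 7.07 and 6.89 in the mutants. The groups did not overlap, the controls had the smallest SD of the 41 genes, 0.014, and the log2 difference was -0.14 (SE 0.06, adjusted p = 0.360). Lamb1, the beta chain that joins Lama2 or Lama4 and Lamc1 in trimers, had a log2 difference of 0.08 (95% interval -0.07 to 0.23, adjusted p = 0.705). The other chains, Lama1, Lama3, Lama5, Lamb2, Lamb3 and Lamc3, had log2 differences between -0.13 and 0.03.

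Nidogens tie laminin to collagen IV, and agrin ties laminin to dystroglycan. Nid1 read 6.52, 6.65, 6.77 and 6.60 in the controls and 6.44, 6.19, 6.58 and 6.10 in the mutants, so that mutant 3 lay within the control range. Its log2 difference of -0.31 (SE 0.10) was the lowest of the 41 genes and did not pass (adjusted p = 0.140, or 0.0452 without mutant 3, with a difference of -0.39). Nid2 had a log2 difference of -0.13 (95% interval -0.33 to 0.07) and Agrn one of 0.04 (95% interval -0.11 to 0.18).

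Tenascin C is made by radial glia and astrocytes and is a ligand of integrin alpha9 beta1. Tnc read 8.37, 8.64, 8.95 and 8.72 in the controls and 8.66, 9.29, 9.31 and 9.21 in the mutants. Mutants 2 to 4 lay above every control, and mutant 1 lay among them. The log2 difference was 0.45 (SE 0.14, adjusted p = 0.126), or 0.60 without mutant 1 (adjusted p = 0.00975). Tnr, the tenascin of perineuronal nets, had a log2 difference of 0.06 (95% interval -0.13 to 0.24). Thbs1, a thrombospondin that astrocytes secrete and that promotes synapse formation, had one of -0.21 (95% interval -0.39 to -0.03, adjusted p = 0.252), and Thbs2 and Thbs4 ones of -0.04 and -0.03. Spon1, the gene of F-spondin, an axon guidance protein of the floor plate, read 6.30 ± 0.32 and 6.48 ± 0.14 (SD, n = 4), with a log2 difference of 0.18 (adjusted p = 0.635).

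Ranges of the groups were apart for 7 of the 41 genes (17.1%), 5 with the mutant higher and 2 with it lower, against 9.25% of all genes, 5.46% higher and 3.79% lower. Itga8, Itga11 and Itgb6 had both group means at or below the floor, and Itgb7, Lama3 and Thbs2 had the mutant mean there. The remaining 35 had both means above it. Control 1 was the highest control for 16 genes and the lowest for 12, while mutant 4 was the lowest mutant for 15. The SD was larger among controls than among mutants for 26 of the 41 genes, with medians of 0.135 and 0.094. The map of values by pup shows that Npnt, Fn1, Tnc and Spon1 were all lowest in control 1 among the controls.

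**Figure D3:**
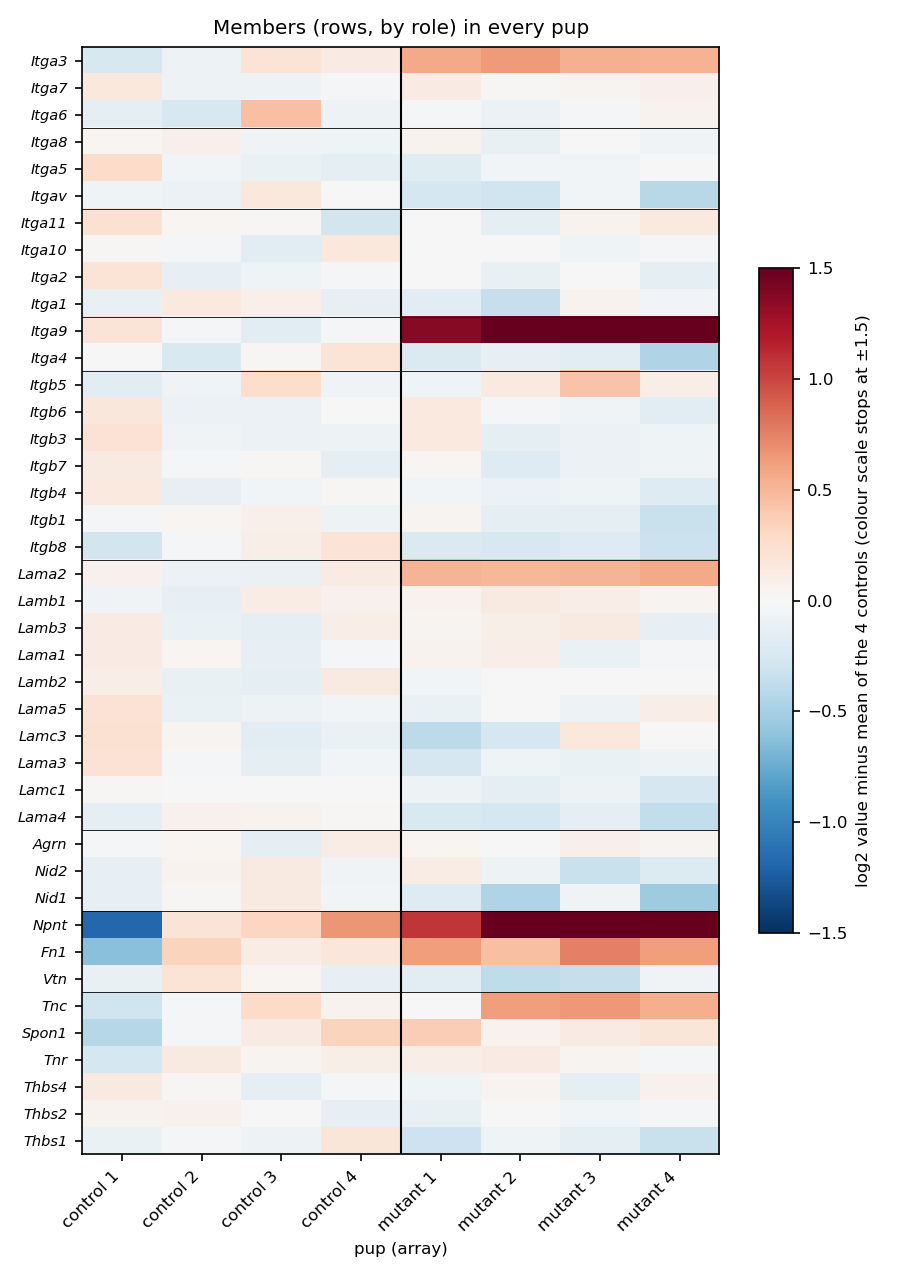
Log2 value of each of the 41 genes (rows, grouped by role) in each of the 8 pups (columns), minus the mean of the 4 controls, with the colour scale stopping at 1.5 in each direction. Itga9, Npnt, Itga3 and Lama2 are red in all 4 mutants, as is Fn1, which did not pass, and Npnt is deep blue in control 1.

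Genes that work with integrins and laminins were read from lists of their own. Of 38 genes of the intracellular adhesion complex, 2 rose, 1 fell and 35 missed the threshold, against 2.36% of all genes higher and 1.79% lower, and the median log2 difference was 0.003 against 0.017 over all genes. Ptk2b, the kinase Pyk2, fell from 8.55 ± 0.17 to 7.57 ± 0.28 (SD, n = 4, log2 difference -0.97, adjusted p = 4.15e-04), a call lost without variance moderation (adjusted p = 0.0621). Elmo1, which with Dock1 activates Rac, rose by 0.66 (adjusted p = 0.017), a call lost without mutant 2 (0.0630), mutant 3 (0.0633) or mutant 4 (0.0542), with all probe sets tested (0.111) and without variance moderation (0.224). Parva, a parvin of the complex with integrin-linked kinase, rose by 0.38 (adjusted p = 0.0301), a call lost without any 1 pup other than control 3 or mutant 2 (adjusted p from 0.0634 to 0.101), after median centring (0.0578), with all probe sets tested (0.126) and without variance moderation (0.199).

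Of 25 other basement membrane genes, 3 rose, none fell and 22 missed the threshold, against the same 2.36% and 1.79% of all genes. At an unadjusted p under 0.05 limma had 3 higher and 2 lower, against 8.54% and 5.45%. Fras1, an epithelial basement membrane protein that forms a complex with Frem proteins and binds nephronectin, rose from 5.09 ± 0.16 to 5.78 ± 0.12 (SD, n = 4, log2 difference 0.68, adjusted p = 4.57e-04). Fbln1, the gene of fibulin-1, which binds fibronectin, laminin and nidogen, rose from 6.45 ± 0.13 to 7.07 ± 0.16 (SD, n = 4, log2 difference 0.61, adjusted p = 0.00128), a call lost without variance moderation (adjusted p = 0.0663). Smoc2 rose by 0.27 (adjusted p = 0.0449), a call lost without any 1 pup other than control 4 or mutant 3 (adjusted p from 0.0798 to 0.142) and under 6 further settings at the same threshold (from 0.0662 to 0.123). The collagen IV gene Col4a1, the perlecan gene Hspg2 and the dystroglycan gene Dag1 had log2 differences of -0.05, -0.07 and -0.03.

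Of 35 other ligands and modulators of integrins, 2 fell, 0 rose and 33 missed the threshold, with 2 higher and 3 lower at an unadjusted p under 0.05 in limma. Both totals are near the shares of all genes, 4.15% called and 14% with such a p. Cd47, an integrin-associated protein that also binds thrombospondin 1, fell from 9.77 ± 0.02 to 9.20 ± 0.10 (SD, n = 4, log2 difference -0.57, adjusted p = 1.68e-04). Reln, the gene of reelin, which binds integrin alpha3 beta1, fell by 0.57 on the log2 scale (adjusted p = 0.0279). Its call was lost without control 2 (adjusted p = 0.0887), 3 (0.0796) or 4 (0.0702) or mutant 2 (0.101) or 3 (0.0835), with all probe sets tested (0.145) and without variance moderation (0.255). Vcam1, a ligand of integrins alpha4 and alpha9, read 6.43 ± 0.02 and 6.56 ± 0.04 (SD, n = 4, log2 difference 0.13, adjusted p = 0.343), with every mutant above every control. Of the 7 leukocyte and platelet integrins 0 passed in limma and 0 had an unadjusted p under 0.05, and 5 had both means under the floor.

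Many of these genes are expressed outside projection neurons, and in bulk tissue fewer cells of a type and less RNA per cell cannot be told apart. The mean log2 level of 14 endothelial markers ran from 6.14 to 6.21 in controls and from 6.07 to 6.19 in mutants, with 0 called and 9 below 0. The 12 pericyte and smooth muscle markers ran from 5.58 to 5.69 and from 5.50 to 5.58, with 1 (Abcc9) lower and 9 below 0. The 13 meningeal and perivascular fibroblast markers ran from 5.20 to 5.52 and from 5.10 to 5.39. Of these 13, Lum, Aldh1a2 and Ogn were at the floor, 1 (Cyp1b1) was higher and 10 were below 0. These lists had median log2 differences of -0.07, -0.06 and -0.15, in the direction of Lama4, Lamc1, Nid1, Vtn and Itga1. The other way went 15 of the 41 genes, among them Fn1 (0.62), Lama2 (0.52), Lamb1 (0.08) and Agrn (0.04). The part of these cell types in any of those differences was not tested. The 12 astrocyte and radial glia markers ran from 7.52 to 7.70 in controls and from 7.38 to 7.56 in mutants, with Vim and Glul lower and 9 below 0. The part of glia in the values of Tnc was not tested.

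Neuronal markers moved with genotype as well. The 11 deep-layer markers had mean levels from 7.18 to 7.57 in controls and from 7.65 to 7.78 in mutants, and Ldb2 and Pcp4 rose and Ntsr1 fell. Control 1 had the lowest mean, and among the controls also the lowest Npnt, Fn1, Itga3 and Tnc. Its Itga9 value (4.85) was the highest of the controls, and its Lama2 value (5.50) lay above those of controls 2 and 3. The 9 upper-layer markers had mean levels from 9.23 to 9.41 in controls and from 8.88 to 9.09 in mutants, and 5 fell, led by Cux2, Mdga1 and Pou3f2. Of the 9, 7 were below 0 and 2 above it, Unc5d (log2 difference 0.46, adjusted p = 0.0659) and Rorb (0.11). Unc5d was higher in every mutant than in any control. The 14 interneuron markers ran from 6.89 to 7.05 and from 6.71 to 6.81, with Npy and Dlx1 lower, 12 below 0 and 2 above it. Calb2, 1 of those 2, had a log2 difference of 0.86 (adjusted p = 0.122), with every mutant above every control. None of these 3 lists overlapped between the groups. The 12 general excitatory neuron markers did overlap, from 9.44 to 9.64 and from 9.45 to 9.49, while Snap25 (-0.82), Rbfox3 (-0.63), Slc17a6 (-0.51) and Emx1 (-0.49) fell and Neurod6 (0.70) rose on the log2 scale. Their part in the rises of Npnt, Itga9, Itga3 and Lama2 was not tested.

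**Figure D4:**
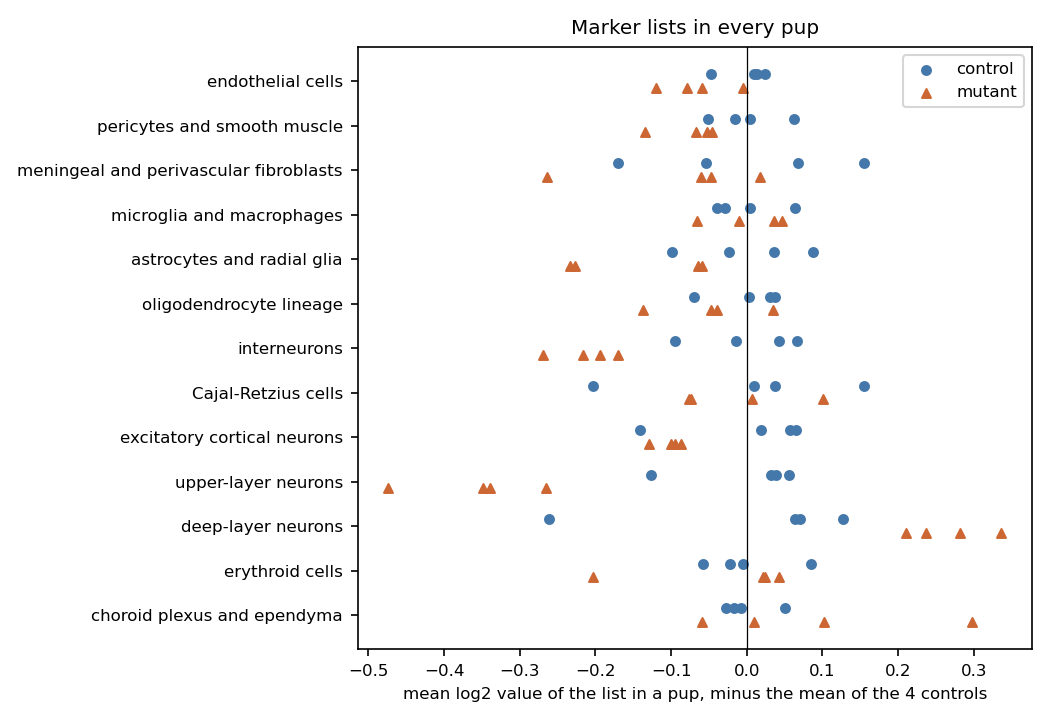
Mean log2 value of each marker list in each pup, minus the mean of the 4 controls (horizontal axis), for 13 lists (vertical axis), with controls as blue circles and mutants as orange triangles. The interneuron and upper-layer lists are lower and the deep-layer list is higher in all 4 mutants than in any control, and the other 10 lists overlap.

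The 4 rises differed in how firmly they held. The plot of adjusted p-values by alternative places Itga9 and Lama2 under 0.05 throughout, Itga3 under it in all but 1 alternative, and Npnt in all but 3. With 1 pup left out, the highest adjusted p was 2.63e-05 for Itga9, 0.00295 for Lama2, 0.0114 for Itga3 and 0.0277 for Npnt. Fn1, Lama4, Tnc and Nid1 lay on either side of 0.05 depending on the setting, with adjusted p from 0.00487 to 0.426 for Tnc.

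**Figure D5:**
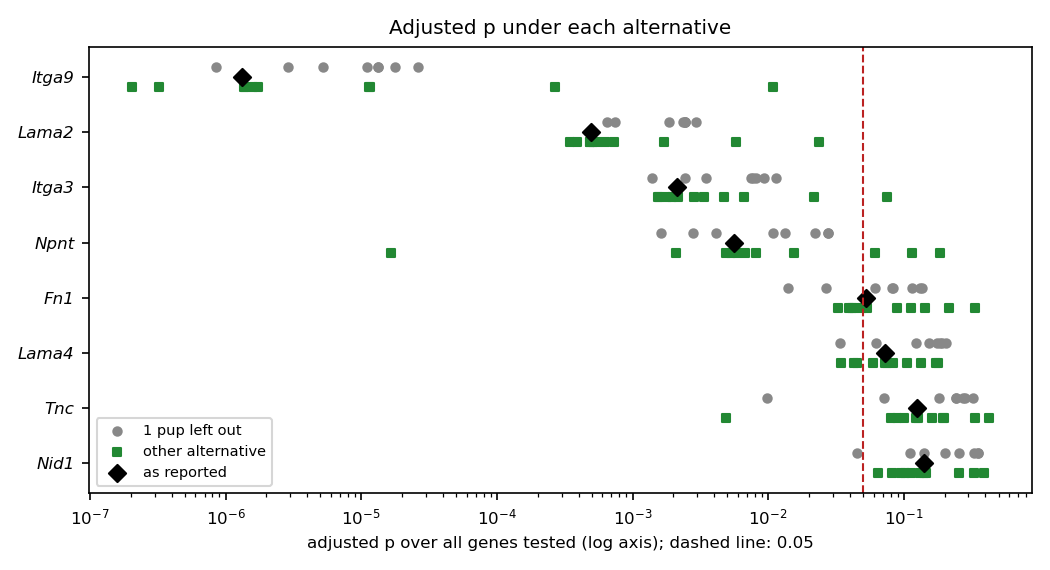
Adjusted p over all genes tested (horizontal log axis, dashed line at 0.05) for 8 genes (vertical axis), as reported (black diamond), with 1 pup left out (grey circles) and under the other alternatives (green squares). Itga9 and Lama2 lie left of the line throughout, and Fn1, Lama4, Tnc and Nid1 straddle it.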

How the data were processed

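The authors deposited 1 table of processed values for 35556 probe sets on 8 arrays. Per the labels, BRB-ArrayTools was used; its background correction, normalization, summarisation and log base were among the steps not given in the sources used here. Values as deposited, from 2.03 to 13.8, were taken as log2 intensities already normalized by the authors. Another base would leave the tests as they are and alter the fold changes.

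Probe sets with 1 gene symbol in the platform annotation (21789; 1621 had several and 12146 none) were kept, and for the 999 genes with more than 1 the brightest was taken, with no filter on dim genes. Each of the 41 measured members had 1 probe set, and all 41 symbols matched the gene table of GRCm38.p6 by Entrez identifier. Mutant and control were compared in limma 3.58.1 (R 4.3.3) on genotype alone, with moderated variances and Benjamini-Hochberg adjustment over 19938 genes. "Rose" and "fell" mean an adjusted p under 0.05, and intervals are 95% intervals of the fit. Precision is limited by the number of arrays, and the median SE of a log2 difference was 0.0766. The fit was tested on simulated data.

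By rule, members past the threshold or with ranges apart are given in every pup, and of the others up to 3 per role. Pup values of Itgb1, Itgb8, Nid1 and Tnc, and Lamb1, Tnr, Thbs2, Thbs4, Col4a1, Hspg2, Dag1 and Vcam1, were added after their values were seen, as was the floor. The members and lists were chosen with earlier results of these data known.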

Additional observations from a re-analysis of the deposited data

Results flagged for a closer look

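In 3 of 82 groups of 4 pups (41 genes in each genotype), 1 pup lay apart from the other 3 by more than Dixon's 95% critical value for the gap over the range. Chance gives about 1 such group in 20. Tnc, the gene of tenascin C, read 8.66 in mutant 1, and the next mutant read 9.21. Itgb3, an integrin beta subunit best known from platelets, read 4.66 in control 1, and the next control read 4.40. Lamb2, a laminin beta chain of synaptic and vascular basement membranes, read 5.72 in mutant 1, although the 4 mutants spanned 5.72 to 5.77.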

How the results depend on the processing

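The count of members called higher, 4, lay between 3 and 6 under the alternatives other than the test without variance moderation, which called 2. The count called lower, 0, became 1 after quantile normalization, with array weights or without the dimmest 50% of genes, and ran from 0 to 2 with 1 pup left out (2 without control 1, Lama4 and Itgb8, and 1 without mutant 3, Nid1). Of all genes 470 were called higher and 357 lower. These counts were 123 and 126 without variance moderation and 243 and 204 at a threshold of 0.01. With all 35556 probe sets tested, the counts were of probe sets and not of genes, 272 higher and 246 lower. Whether replicate numbers pair the pups is not given by the labels, and they were not treated as pairs because 1 of the 4 correlations of same-numbered pups' deviations from the group means (0.109, 0.056, 0.295 and 0.149 across genes) was not over 0.1. As a hint from the data, 6 of 8 pups correlated best with their own number, all but control 2 and mutant 2. Both pups of a pair share 1 correlation, so these are not 8 separate observations. With the replicate block 6 members were called higher and 0 lower, with Fn1 (adjusted p = 0.0328) and Tnc (0.00487) beside the 4, and of all genes 565 were higher and 422 lower. The sign of Itga6 turned with inferred sex as a covariate, to 0.028. With 1 pup left out the log2 difference ran from -0.10 to 0.13 for Itga6, -0.11 to 0.0011 for Itga2, -0.11 to 0.028 for Itga5, -0.076 to 0.028 for Itga10 and -0.0071 to 0.073 for Agrn, none of which passed. Signal near the floor limits Itga8, Itga11 and Itgb6, for which no change could be read.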
